A study of Mus musculus with 6 samples.

Results

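The interferon-stimulated genes are a set of 41 named mouse genes that interferons are known to induce, taken from a list of symbols and found by symbol among the 43629 mouse gene IDs of the count table. All 41 had a row, and 39 had enough counts to be tested, so Ifit3b and Zbp1 are given as counts only. The measurements come from poly-A RNA of M1, a mouse neuroblastoma cell line grown in culture. The libraries labelled shIGF2BP1 (3, genotype given as IGF2BP1 knockdown) carried a hairpin named for Igf2bp1, and the shNT libraries (3, genotype given as WT) carried the control hairpin. Both groups received doxycycline at 4 to 6 µg/ml for 6 days to switch the hairpin on, so the drug and the expression of a hairpin were common to both. The labels name 1 cell line, give no number of hairpins or clones, and do not say whether replicates were separate cultures, so p-values measure the spread between these 6 libraries, which may be technical.

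Type I interferons bind the receptor pair Ifnar1 and Ifnar2, whose kinases Jak1 and Tyk2 phosphorylate STAT proteins, Stat2 among them. Stat2 and Irf9 are parts of ISGF3, a complex that binds the interferon-stimulated response element (ISRE) in the promoters of its target genes, while interferon gamma acts through the gamma-activated site (GAS). The induced proteins sense foreign nucleic acids, degrade RNA or block viral entry and replication, and some, such as Usp18, damp the response again. Tumour cells can carry such genes at a low steady level without infection.

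Promoter sequences were taken from RefSeq (GRCm38.p6) as windows of 250 bases before to 50 after each start, and 31 of the 41 members matched a window. The ISRE core was searched as GAAANNGAAA on both strands, and was present in 16 of the 31 members (51.6%) and in 3.99% of the 27025 genes with a window. The GAS core, TTCNNNGAA, which reads the same on both strands, was present in 8 members (25.8%) and in 9.55% of all genes, and overlapped an ISRE core in Bst2 and Ifitm3. Of the 15 tested members with an ISRE core, 12 had a positive log2 fold change of shIGF2BP1 over shNT, with a median of 0.50, and of the 15 tested members with a window and no ISRE core, 11 did, with a median of 0.15. For the GAS core the medians lay the other way. Of the 8 tested members with it, 6 were positive, with a median of 0.08. Of the 22 with a window and no GAS core, 17 were, with a median of 0.23. The 8 stretches below each show 1 core, or 1 run of overlapping cores, in capitals with up to 25 bases on each side, 5′ to 3′ along the gene. The first 4 belong to low members whose libraries did not overlap between groups, all higher in the libraries labelled shIGF2BP1. Usp18 and Mx1, also higher there without overlap, matched no window and were not searched. Isg15, Bst2 and Ifitm3 carry the core with overlapping groups, and Ifih1 carries it with lower values in every library labelled shIGF2BP1.
Ifit3 (chr19:34583382-34583441, plus strand): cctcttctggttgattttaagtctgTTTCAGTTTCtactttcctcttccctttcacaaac
Gbp7 (chr3:142530258-142530317, plus strand): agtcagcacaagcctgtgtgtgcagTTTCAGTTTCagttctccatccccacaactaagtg
Oas1a (chr5:120907505-120907570, minus strand): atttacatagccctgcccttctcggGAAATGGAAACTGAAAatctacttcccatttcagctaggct
Rsad2 (chr12:26456538-26456597, minus strand): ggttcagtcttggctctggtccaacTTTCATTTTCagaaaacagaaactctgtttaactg
Isg15 (chr4:156200850-156200921, minus strand): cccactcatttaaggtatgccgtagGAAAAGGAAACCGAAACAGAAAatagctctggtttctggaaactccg
Bst2 (chr8:71537562-71537627, minus strand): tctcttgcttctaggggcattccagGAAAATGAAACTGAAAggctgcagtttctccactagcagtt
Ifitm3 (chr7:141010708-141010767, minus strand): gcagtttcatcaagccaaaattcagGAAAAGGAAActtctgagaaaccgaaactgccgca
Ifih1 (chr2:62646206-62646248, minus strand): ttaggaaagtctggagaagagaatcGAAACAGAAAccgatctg
In Gbp7 the core ends 43 bases before the start, in Isg15 56 and in Ifit3 112, whereas in Ifih1 and Ifitm3 it lies after the start. The lower-case part of the Ifitm3 stretch holds a second, separate core. The stretch shown for Ifit3 occurs letter for letter in the window of its neighbour Ifit3b as well.

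The table gives whole-number read counts. Library totals ran from 25119655 to 34014482 counts in the libraries labelled shIGF2BP1 and from 30756389 to 35373076 in shNT, and a count of 3 corresponds to 0.0851 to 0.114 CPM (counts scaled by library total and TMM factor). The targeted mRNA, Igf2bp1, had 2.56, 0.993 and 11.3 CPM in the libraries labelled shIGF2BP1 and 1.25, 5.14 and 6.08 CPM in shNT (edgeR adjusted p = 0.966). The groups overlapped, and the log2 fold change was 0.25 with all libraries, -1.24 when shIGF2BP1 replicate 3 was left out and -0.18 when shNT replicate 1 was, so directions below compare libraries by their labels and not by a measured loss of Igf2bp1. Neuroblastoma identity was present in part: Hand2, a factor of sympathetic development, had 429 to 457 CPM in the libraries labelled shIGF2BP1 and 257 to 480 CPM in shNT, while Th and Dbh had 0 counts in all 6 libraries.

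In the main fit most interferon-stimulated genes had higher values in the libraries labelled shIGF2BP1, but no member passed the test. The larger fold changes were those of members of low expression. Of the 39 tested members, 30 had a positive log2 fold change (76.9%, against 48.5% of the 13445 genes tested), and their median was 0.22, against -0.01 over all genes tested. The edgeR quasi-likelihood test called 0 members at an adjusted p under 0.05 (smallest 0.284), and 3 genes in all (0.0223%). At an unadjusted p under 0.05, 5 members were higher (Usp18, Gbp7, Cmpk2, Mx1 and Ifit3) and 0 lower, where 3.17% of all tested genes were higher and 3.99% lower. The 5 became 8 without shNT replicate 1, 3 without shNT replicate 3 or shIGF2BP1 replicate 1, and 2 without shNT replicate 2. In these fits, taken in the same order, 5.60%, 2.36%, 1.58% and 4.07% of all tested genes were higher. DESeq2 called 1 member, Usp18, among 82 of the 13445 genes, and limma-voom called 0 members and 1 gene in all. In 6 members every library labelled shIGF2BP1 lay above every shNT library, where 6.06% of all tested genes did, and in 1 member every such library lay below, where 5.59% did. Usp18 and Mx1 are among both the 5 and the 6. They reached the minimum CPM of the filter for testing in all 3 libraries labelled shIGF2BP1, but in 1 and 2 shNT libraries, respectively. The 30 positive values became 20 of 39 when 1 surrogate variable was fitted, with a median of 0.01, where 50.5% of all tested genes were positive. They became 23 of 39 without shNT replicate 3, where 50.2% of all tested genes were positive.

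**Figure D1:**
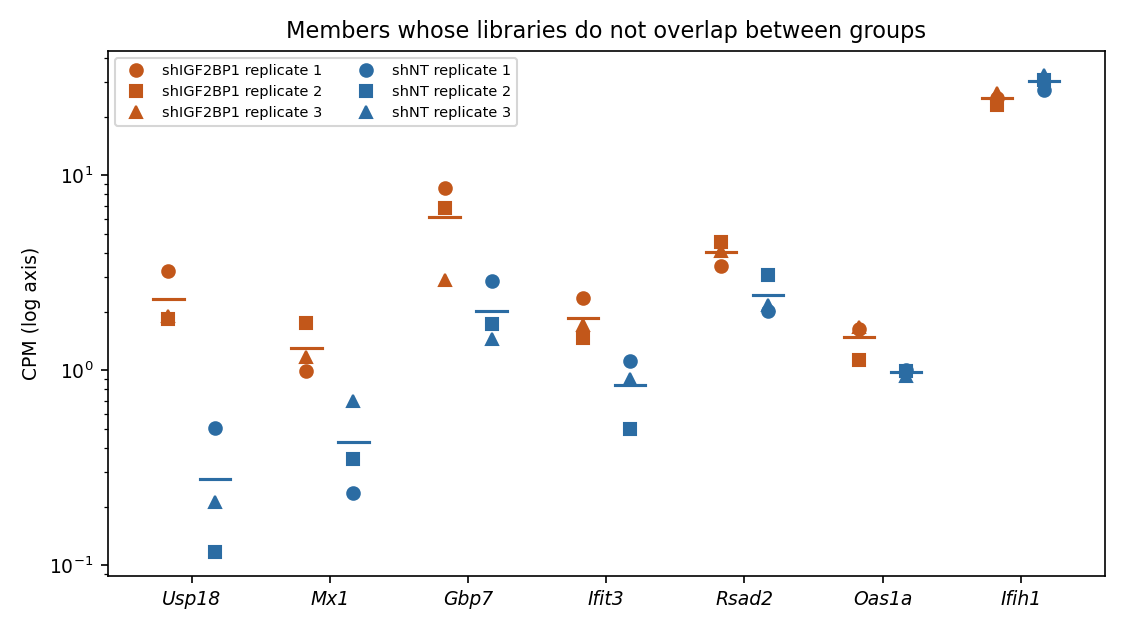
CPM on a log axis of the 7 members whose libraries did not overlap between groups, shIGF2BP1 left of shNT for each gene, with 1 point per library and a bar at the group mean. The gap is widest for Usp18, whose shIGF2BP1 libraries sit between 1.84 and 3.24 CPM and whose shNT libraries sit between 0.117 and 0.505 CPM, and Ifih1 alone has its shIGF2BP1 points below.

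Usp18 (chr6:121245906-121270917) had the largest fold change of the members. It encodes the protease that removes ISG15 from proteins and blocks signalling at the interferon receptor. Usp18 had 3.24, 1.84 and 1.90 CPM in the libraries labelled shIGF2BP1, against 0.505, 0.117 and 0.212 CPM in shNT. These values rest on 85, 65 and 52 counts in the libraries labelled shIGF2BP1 and on 15, 4 and 7 counts in shNT. The 2 groups did not overlap, and the log2 fold change was 3.06 ± 0.63 (SE; 95% interval 1.68 to 4.44; edgeR adjusted p = 0.284). Its exons share 124 bases with the lincRNA Gm44148 on the opposite strand. DESeq2, which called 82 genes where edgeR called 3, gave Usp18 an adjusted p of 0.000946. Usp18 reached the minimum CPM of the filter in all 3 libraries labelled shIGF2BP1 and in 1 shNT library. Over all alternatives its log2 fold change ran from 2.69 to 3.79, being largest without shNT replicate 1. The other members of the ISG15 system showed no such gap. Isg15, the ubiquitin-like modifier itself, had 6.71, 5.19 and 7.44 CPM in the libraries labelled shIGF2BP1 and 7.31, 2.70 and 3.69 CPM in shNT, where replicate 1 lay among the shIGF2BP1 values (log2 fold change 0.50 ± 0.41). Herc6, the main ISG15 ligase of mouse cells, had 17.8 ± 2.47 CPM in the libraries labelled shIGF2BP1 and 16.01 ± 1.95 CPM in shNT (SD, n = 3 each). Trim25, a ubiquitin ligase that acts on RIG-I, had 105 ± 9.64 CPM in the libraries labelled shIGF2BP1 and 98.4 ± 18.3 CPM in shNT. Dtx3l and Parp9, which form a ubiquitin ligase complex and share 458 exon bases on opposite strands, had log2 fold changes of -0.13 ± 0.26 and -0.06 ± 0.27. Parp14, an ADP-ribosyltransferase, had -0.09 ± 0.33.

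The GTPases were all on the positive side, 5 of 5 tested, with a median log2 fold change of 0.96, and they were all low. Of the 5, Mx1 and Mx2 each reached the minimum CPM of the filter for testing in all 3 libraries labelled shIGF2BP1 and in 2 shNT libraries. The count is therefore not support for a direction. Gbp7, a guanylate-binding protein that acts on pathogen-containing compartments, had 8.58, 6.78 and 2.92 CPM in the libraries labelled shIGF2BP1, against 2.86, 1.73 and 1.45 CPM in shNT. Replicate 3 of shIGF2BP1 and replicate 1 of shNT lay close together at 2.92 and 2.86 CPM, and the log2 fold change was 1.60 ± 0.48 (edgeR adjusted p = 0.524). Gbp7 shares 637 exon bases with the pseudogene Gm43802 on the same strand, and 12.5% of its 53-base windows occur in Gm43802 or Gbp3, so its count is uncertain to that extent. Mx1, a dynamin-like protein that blocks influenza viruses, had 0.992, 1.76 and 1.17 CPM in the libraries labelled shIGF2BP1, against 0.236, 0.352 and 0.696 CPM in shNT. Its groups did not overlap either (log2 fold change 1.60 ± 0.58; edgeR adjusted p = 0.629). Mx2, annotated in GENCODE as a polymorphic pseudogene, had 0.381, 1.02 and 0.547 CPM in the libraries labelled shIGF2BP1, and 0.168, 0.44 and 0.393 CPM in shNT. Gbp2 and Gbp3, both guanylate-binding proteins, had log2 fold changes of 0.73 ± 0.62 and 0.63 ± 0.70. Their shIGF2BP1 libraries ran from 0.51 to 2.90 and from 0.948 to 2.67 CPM, and overlapped shNT.

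The IFIT proteins, which bind viral RNA ends, split by level. Ifit3 had 2.37, 1.47 and 1.71 CPM in the libraries labelled shIGF2BP1, against 1.11, 0.499 and 0.907 CPM in shNT. All 3 shIGF2BP1 values were above all shNT values, and the log2 fold change was 1.14 ± 0.50, for which edgeR gave an adjusted p of 0.687. Ifit3 and its neighbour Ifit3b are near copies: 49.9% of the 53-base windows of Ifit3 transcripts also occur in another gene, Ifit3b, so reads of the 2 genes can be split between them. Ifit3b had 4, 1 and 1 counts in the libraries labelled shIGF2BP1 and 7, 3 and 3 counts in shNT. Ifit1, at 1.37, 1.79 and 1.35 CPM in the libraries labelled shIGF2BP1 and 1.48, 0.646 and 0.423 CPM in shNT, overlapped through shNT replicate 1. Ifit2, by far the most abundant of the 4, had 40.1, 25.9 and 37.4 CPM in the libraries labelled shIGF2BP1 and 28.9, 49.2 and 20.4 CPM in shNT, with a log2 fold change of 0.07 ± 0.32. Per length, Ifit2 stood at 8.77 RPKM, the CPM per kilobase of annotated exon, in the libraries labelled shIGF2BP1 and 8.36 in shNT, against 1.06 and 0.481 RPKM for Ifit3.

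The oligoadenylate synthetases, which make the second messenger that activates RNase L, and their inactive or weakly active relatives all had values on the positive side, 5 of 5 tested, at a median log2 fold change of 0.55, which became 3 of 5 with 1 surrogate variable. Oas1a had 1.64, 1.14 and 1.68 CPM in the libraries labelled shIGF2BP1, against 1.01, 0.998 and 0.937 CPM in shNT. The shNT values of Oas1a were close together and all below the shIGF2BP1 values (log2 fold change 0.59 ± 0.46; edgeR adjusted p = 0.849), but 55.9% of its 53-base windows also occur in Oas1g or Oas1b. Oas2 had 0.687, 0.369 and 0.182 CPM in the libraries labelled shIGF2BP1, on 5 to 18 counts, and 0.27, 0.117 and 0.363 CPM in shNT. Oas3, the large synthetase, had 1.22, 1.05 and 0.328 CPM in the libraries labelled shIGF2BP1 and 0.977, 0.793 and 0.454 CPM in shNT. Oasl1 and Oasl2 had log2 fold changes of 0.55 ± 0.58 and 0.24 ± 0.48, with overlapping groups. Oasl1 reached the minimum CPM of the filter in all 3 libraries labelled shIGF2BP1 and in 1 shNT library, so the 5 of 5 is not support for a direction.

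Of the 4 tested RNA sensors, 2 had a positive log2 fold change, with a median of -0.05. Without shNT replicate 1 the count was 1, and without shNT replicate 3 it was 3, with a median of 0.03. With 1 surrogate variable it stayed 2, with a median of 0.02. Ifih1, which encodes the long double-stranded RNA sensor MDA5, was the 1 member with every library labelled shIGF2BP1 below shNT, at 25.03, 23.0 and 26.6 CPM in shIGF2BP1 against 27.5, 30.7 and 32.9 CPM in shNT, a log2 difference of -0.29 ± 0.21 with an adjusted p of 0.832 by edgeR. With library totals in place of TMM factors its groups overlapped. Ddx58, which encodes RIG-I, the sensor of RNA 5′ triphosphates, had 37.2, 46.8 and 44.0 CPM in the libraries labelled shIGF2BP1 and 42.5, 41.7 and 79.6 CPM in shNT. The library at 79.6 CPM was shNT replicate 3, and leaving it out moved the difference, -0.35 ± 0.27 as a log2 fold change, to 0.02. Dhx58, the regulator LGP2, had 4.96, 6.27 and 4.41 CPM in the libraries labelled shIGF2BP1 and 3.84, 6.31 and 2.69 CPM in shNT. Eif2ak2, the kinase PKR that stops translation on double-stranded RNA, had 54.2 ± 8.17 CPM in the libraries labelled shIGF2BP1 and 47.6 ± 13.7 CPM in shNT (SD, n = 3 each). Zbp1, the sensor of Z-form nucleic acids, had 5, 11 and 1 counts in the libraries labelled shIGF2BP1 and 3, 1 and 3 counts in shNT, too few to test.

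Of the 4 transcription factors that drive the response, 2 had a positive log2 fold change, and 1 did with 1 surrogate variable or without shIGF2BP1 replicate 2, shNT replicate 1 or shNT replicate 3. Stat2 had 23.7, 27.1 and 23.2 CPM in the libraries labelled shIGF2BP1 and 20.6, 33.2 and 17.5 CPM in shNT (log2 fold change 0.05 ± 0.27). Irf9, the DNA-binding part of ISGF3, had 22.9, 27.6 and 18.4 CPM in the libraries labelled shIGF2BP1, and 20.2, 17.5 and 18.02 CPM in shNT (log2 fold change 0.31 ± 0.24). Its exons share 123 bases with Rnf31 on the same strand, so part of its count is uncertain. Irf1, an early target of interferon signalling, had 55.5, 62.4 and 58.6 CPM in the libraries labelled shIGF2BP1 and 58.7, 62.4 and 135 CPM in shNT. The log2 fold change of Irf1, -0.54 ± 0.30, was -0.04 without shNT replicate 3, which alone stood apart. Irf7, the factor that amplifies interferon alpha production, had 2.21, 1.59 and 3.14 CPM in the libraries labelled shIGF2BP1 and 3.40, 2.55 and 3.90 CPM in shNT (log2 fold change -0.51 ± 0.42), and was 1 of 2 members under 5 CPM with a negative value. Irf7 shares 45 exon bases on opposite strands with Phrf1, which had 21799 counts over the 6 libraries against 517 for Irf7.

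Among the remaining effectors, 9 of 11 had a positive log2 fold change, with a median of 0.15. The 9 became 4 with 1 surrogate variable and 5 without shNT replicate 3. Rsad2, which encodes viperin, had 3.43, 4.57 and 4.12 CPM in the libraries labelled shIGF2BP1, against 2.02, 3.08 and 2.18 CPM in shNT. The groups of Rsad2 did not overlap (log2 fold change 0.73 ± 0.38; edgeR adjusted p = 0.753). Cmpk2, a mitochondrial nucleotide kinase whose gene neighbours Rsad2 on chromosome 12, had 4.92, 1.73 and 2.84 CPM in the libraries labelled shIGF2BP1 and 1.75, 0.558 and 0.756 CPM in shNT. The fit gave 1.63 ± 0.58 for it as a log2 fold change, with an edgeR adjusted p of 0.62, but the groups overlapped, since shIGF2BP1 replicate 2 and shNT replicate 1 both stood near 1.7 CPM. Xaf1, a promoter of apoptosis, had 2.52, 4.88 and 2.15 CPM in the libraries labelled shIGF2BP1 and 2.83, 1.88 and 1.57 CPM in shNT.

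The 3 most abundant members per length had log2 fold changes of -0.51, 0.09 and 0.15, none past the test. Ifitm3, which stops viruses in endosomes, had 254 RPKM in the libraries labelled shIGF2BP1 and 362 RPKM in shNT, the highest level of all members. Ifitm3 had 162, 188 and 167 CPM in the libraries labelled shIGF2BP1 and 355, 171 and 211 CPM in shNT, with shNT replicate 1 far above the rest (log2 fold change -0.51 ± 0.27; edgeR adjusted p = 0.754). Bst2, or tetherin, which holds budding virions at the cell surface, had 67.8, 89.0 and 77.4 CPM in the libraries labelled shIGF2BP1 and 104, 68.5 and 47.8 CPM in shNT. Lgals3bp, a secreted galectin-binding glycoprotein, had 235, 220 and 204 CPM in the libraries labelled shIGF2BP1 and 273, 169 and 151 CPM in shNT. In both genes the shNT libraries reached above and below all of the shIGF2BP1 libraries. Ifi27, Ifi35, a binding partner of Nmi, Rtp4, a receptor transporter, and Sp100, a nuclear body protein, had log2 fold changes of 0.07 to 0.22. Ifi44 had 1.18, 2.13 and 1.71 CPM in the libraries labelled shIGF2BP1 and 3.91, 0.998 and 2.27 CPM in shNT.

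**Figure D2:**
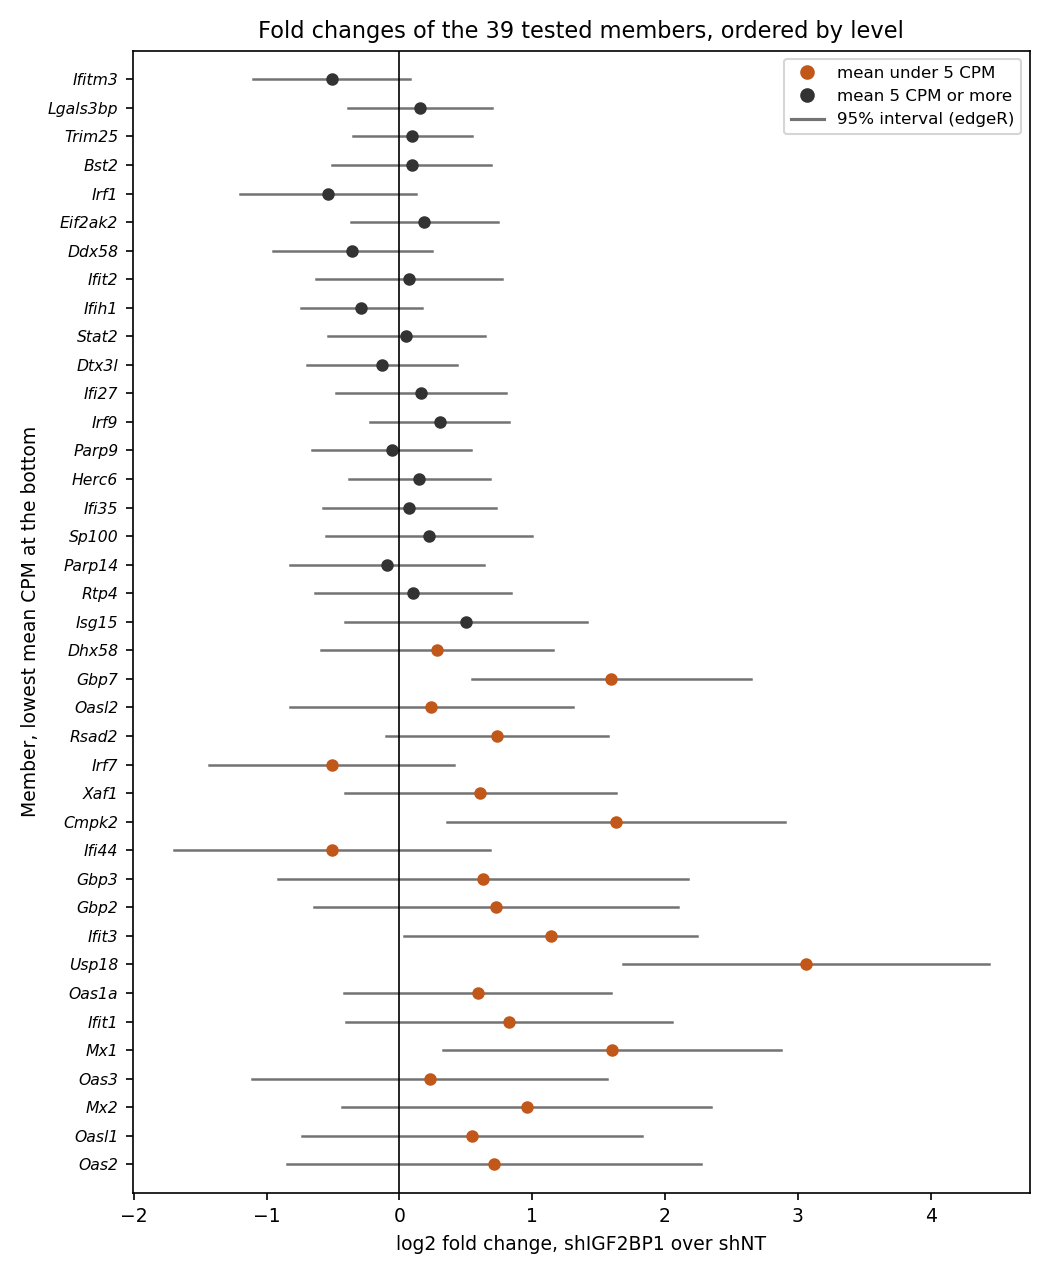
Log2 fold change of shIGF2BP1 over shNT for each of the 39 tested members, with the 95% interval of the edgeR fit as a line, ordered from the lowest mean CPM at the bottom to the highest at the top. The intervals of Usp18, Gbp7, Cmpk2, Mx1 and Ifit3 lie to the right of 0, all of them members under 5 CPM, and no interval lies to the left of 0.

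Expression level divided the members. Under a mean of 5 CPM over the 6 libraries, 17 of 19 members (89.5%) had a positive log2 fold change, with a median of 0.71, where 58.2% of the 2965 tested genes in that class were positive, with a median of 0.10. At 5 CPM or more, 13 of 20 members (65%) were positive, with a median of 0.08, against 45.7% of 10480 genes and a median of -0.03. The 13 became 5 with 1 surrogate variable, 7 without shNT replicate 3 and 9 without shIGF2BP1 replicate 2, each with a median below 0, while the 17 low members ran from 15 to 18 of 19 over all alternatives that tested them. The filter bears on the lower class: 4 of its members (Usp18, Mx1, Mx2 and Oasl1) reached the filter's minimum CPM in all libraries labelled shIGF2BP1 and in only 1 or 2 shNT libraries, and 0 members the other way round. Without these 4, 13 of 15 low members and 26 of 35 in all were positive, with medians of 0.63 and 0.16, so the share and the median describe the members that passed and are not support for a direction. All 6 members whose libraries labelled shIGF2BP1 lay above shNT were in the lower class, where 8.84% of all genes did so, and 0 were in the upper class, where 5.28% did. Of the 2 negative members under 5 CPM, Irf7 and Ifi44, neither had groups apart. With classes set per length the split was the same in kind: under 1 RPKM 16 of 18 members were positive with a median of 0.72, and from 1 RPKM upwards the 3 classes had medians of 0.08, 0.08 and 0.09. In all, 31 of the 39 members had a mean CPM under the median of all tested genes, 32.4 CPM. Single low members have wide errors, with a median SE of 0.61 log2 units under 1 CPM and 0.26 at 50 CPM or more.

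**Figure D3:**
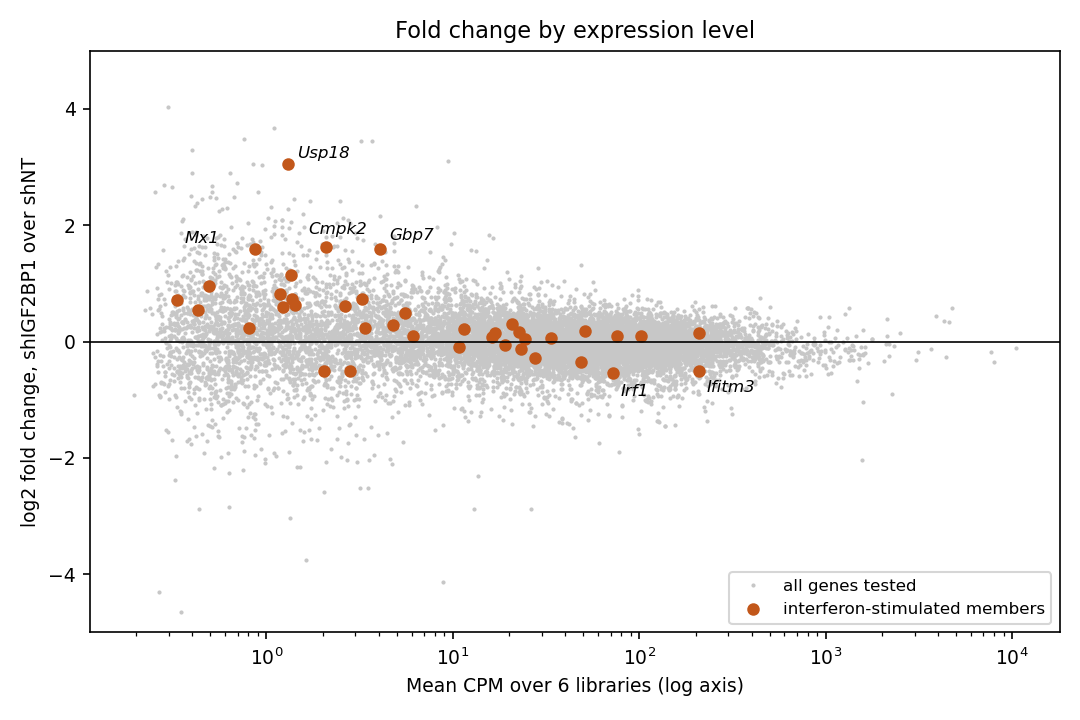
Log2 fold change of shIGF2BP1 over shNT against the mean CPM over 6 libraries on a log axis, for all genes tested (grey) and the 39 tested interferon-stimulated members (orange). Members under 5 CPM sit mostly above 0, with a median of 0.71, and members at 5 CPM or more sit around 0, with a median of 0.08; 6 genes lie beyond the plotted range of 5 log2 units.

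The libraries of each group differed among themselves. Taking each member's log2 CPM minus its mean over the 6 libraries, the median over members was 0.25, 0.22 and -0.05 in shIGF2BP1 replicates 1 to 3 and 0.20, -0.23 and -0.32 in shNT replicates 1 to 3, while the median over all tested genes stayed between -0.01 and 0.01 in every library. The groups therefore overlapped: shNT replicate 1 stood with the higher shIGF2BP1 libraries, and shIGF2BP1 replicate 3 stood between the groups. A library labelled shIGF2BP1 held the highest value for 24 of the 39 members, 13 of them in replicate 1, where for all tested genes the share was 41.5%. An shNT library held the lowest value for 29 members, against 59.0% of all tested genes. Without shNT replicate 1, 17 members had every library labelled shIGF2BP1 above the other shNT libraries, where 14.9% of tested genes did, and without shIGF2BP1 replicate 3, 12 did, where 12.1% of tested genes did. The summed CPM of the 41 members did not show the difference, at 953 to 1066 CPM in the libraries labelled shIGF2BP1 and 956 to 1258 CPM in shNT. Ifitm3 and Lgals3bp made up 20.1% and 20.05% of that sum.

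**Figure D4:**
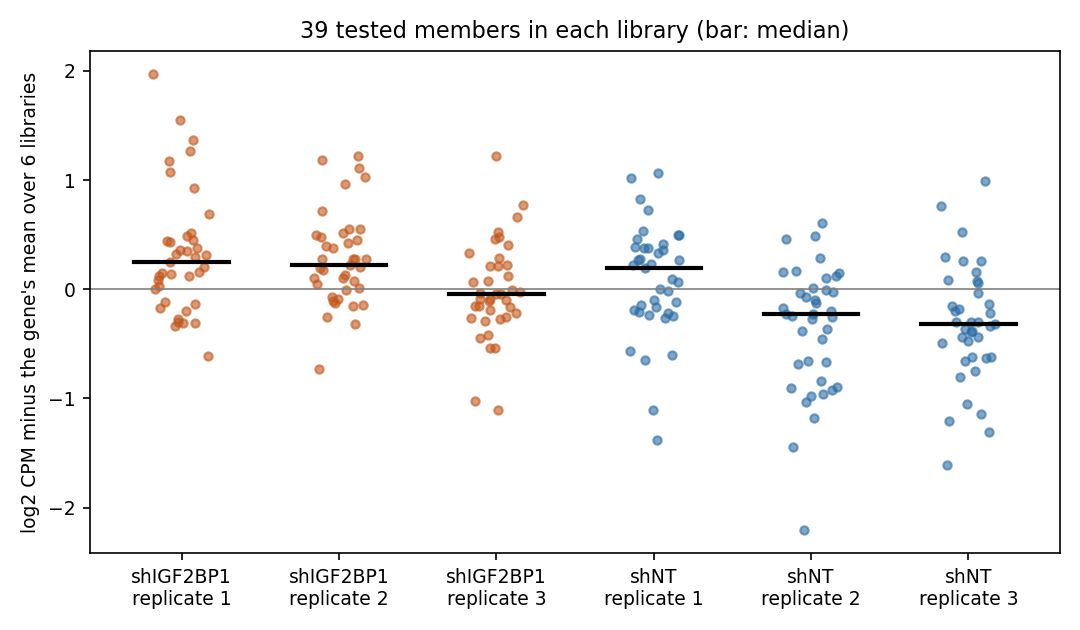
Each point is 1 of the 39 tested members in 1 library, as its log2 CPM minus the mean of that gene over the 6 libraries, with a black bar at the median and the shIGF2BP1 libraries to the left of the shNT libraries. The medians run from -0.05 to 0.25 in shIGF2BP1 and from -0.32 to 0.20 in shNT, and the bar of shNT replicate 1 stands level with the 2 upper shIGF2BP1 bars.

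Interferon mRNAs themselves were almost absent. Of 21 interferon ligand genes, 17 had 0 counts in all 6 libraries, and none could be tested. Ifnb1 had 0 counts in each library labelled shIGF2BP1 and 1, 0 and 3 counts in shNT. Ifne and Ifna7 had 10 and 7 counts in shIGF2BP1 replicate 2, 0 in the other libraries labelled shIGF2BP1, and at most 1 in any shNT library. A level under 0.0851 to 0.114 CPM could give 0 counts at this depth.

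Of the receptors and signalling genes, 6 of 21 tested had a positive log2 fold change, with a median of -0.14, and edgeR called 0. Ifnar2, a subunit of the type I receptor, had 27.8, 33.7 and 28.8 CPM in the libraries labelled shIGF2BP1, against 45.4, 37.6 and 42.6 CPM in shNT, a log2 difference of -0.48 ± 0.20 with an adjusted p of 0.686 by edgeR. Irf2, which competes with Irf1 for its sites, had 43.1, 53.8 and 52.3 CPM in the libraries labelled shIGF2BP1, against 60.1, 92.7 and 78.6 CPM in shNT, a log2 difference of -0.63 ± 0.22 with an adjusted p of 0.606 by edgeR. For both genes all 3 shIGF2BP1 values lay below shNT. Both were lower at an unadjusted p under 0.05. At that threshold 1 other gene of this list was higher, with every library labelled shIGF2BP1 above shNT. Over all tested genes 3.99% were lower and 3.17% higher at that threshold. Without overlap, 5.59% of all tested genes lay below and 6.06% above.

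Other genes of the interferon response, 62 by a list that does not hold the members, gave 35 positive log2 fold changes of 53 tested, with a median of 0.08 and 0 called by edgeR, 2 being higher and 1 lower at an unadjusted p under 0.05. Over all tested genes 3.17% were higher and 3.99% lower at that threshold, the shares to set beside this list and the 2 lists below. Nlrc5, the transactivator of MHC class I genes, had 23.2, 35.6 and 13.0 CPM in the libraries labelled shIGF2BP1 and 10.8, 12.7 and 13.7 CPM in shNT, a log2 difference of 0.95 ± 0.34 with an adjusted p of 0.62 by edgeR. Its groups overlapped, and the difference was 0.56 without shIGF2BP1 replicate 2. Apol9a, an apolipoprotein L, had 1.26 ± 0.51, and Trim56, a ubiquitin ligase of the tripartite motif family, had -0.55 ± 0.22. The GTPases typical of interferon gamma had 6 of 6 tested positive, with a median of 0.74 and 0 called by edgeR, 2 of them higher at an unadjusted p under 0.05. Not all of these 6 reached the filter's minimum CPM in every shNT library, so the count is not support for a direction. Iigp1, an immunity-related GTPase, had 7.67, 3.63 and 1.31 CPM in the libraries labelled shIGF2BP1 and 1.95, 0.499 and 0.454 CPM in shNT, with shNT replicate 1 above shIGF2BP1 replicate 3 (log2 fold change 2.12 ± 0.73; edgeR adjusted p = 0.606). With no filter edgeR called Iigp1, at an adjusted p of 0.03. Igtp, another of that family, had 10.3, 10.2 and 7.44 CPM in the libraries labelled shIGF2BP1, against 6.91, 5.11 and 3.48 CPM in shNT, a log2 difference of 0.85 ± 0.35 with an adjusted p of 0.684 by edgeR, and Irgm2 had 0.54 ± 0.35. Of the 16 genes of this list, 13 were matched, and the other 3 are not analysed here. Sensor adaptors and kinases had 11 of 20 tested positive, with a median of 0.05 and 0 called by edgeR, 1 being lower at an unadjusted p under 0.05. The smallest p there belonged to Irak1, a kinase downstream of Toll-like receptors, with -0.50 ± 0.18, followed by Tank at -0.52 ± 0.25 and Adar, an RNA-editing enzyme, at -0.41 ± 0.24. Without shNT replicate 3 Tank was at -0.23 and Adar at -0.17.

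Blood cells also express interferon-stimulated genes, and in bulk RNA fewer cells of a type and less RNA per cell cannot be told apart. Of 10 leukocyte markers, 5 had 0 counts in all libraries, Ptprc had 1 count, in shIGF2BP1 replicate 3, and the summed level was 4.63 to 6.38 CPM in the libraries labelled shIGF2BP1 and 8.26 to 15.5 CPM in shNT. Most of that sum was Cd68, a lysosomal protein, at 3.66, 5.56 and 3.14 CPM in the libraries labelled shIGF2BP1 against 7.78, 14.6 and 13.1 CPM in shNT, with no overlap. The log2 fold change of Cd68 was -1.52 ± 0.36 (edgeR adjusted p = 0.403), and it was called by DESeq2 (adjusted p = 0.00811) and by edgeR with no filter (adjusted p = 0.0187). Fcer1g, an Fc receptor chain on the same list, lay the other way with no overlap, at 10, 20 and 10 counts in the libraries labelled shIGF2BP1 and 0, 6 and 1 counts in shNT (log2 fold change 2.57 ± 0.90; edgeR adjusted p = 0.616). Fcer1g reached the filter's minimum of 0.312 CPM only in libraries labelled shIGF2BP1, so its values are not support for a direction. Of 5 markers of plasmacytoid and dendritic cells, Siglech and Ccr9 had 0 counts, and the sum of 67.8 to 89.1 CPM in the libraries labelled shIGF2BP1 and 47.8 to 104 CPM in shNT was almost wholly Bst2, itself a member. Endothelial markers summed to 31.1 to 73.7 CPM in the libraries labelled shIGF2BP1 and 37.1 to 53.8 CPM in shNT, with Emcn at 0. Most of the endothelial sum was Pecam1, at 54.7, 28.5 and 72.8 CPM in the libraries labelled shIGF2BP1 and 29.6, 34.6 and 47.9 CPM in shNT. Its log2 fold change was 0.48 ± 0.32. Cdh5 had 2 counts, in shNT replicate 2. Kdr, on the same list, lay the other way from Pecam1 and was lower at an unadjusted p under 0.05, with a log2 fold change of -1.95 ± 0.58. The groups of Kdr overlapped. Fibroblast markers summed to 252 to 518 CPM in the libraries labelled shIGF2BP1 and 307 to 424 CPM in shNT, with Lum at 0. Most of the fibroblast sum was Col1a1, and at an unadjusted p under 0.05 the list held 1 gene higher, Postn, and 1 lower, Pdgfra. Postn had 15, 11 and 91 counts in the libraries labelled shIGF2BP1 and 0, 8 and 4 counts in shNT, with no overlap (log2 fold change 3.48 ± 1.08; edgeR adjusted p = 0.537), and Pdgfra had a log2 fold change of -0.69 ± 0.30. Postn, like Fcer1g, reached the filter's minimum CPM only in libraries labelled shIGF2BP1, so its values are not support for a direction. Of the 3 erythroid markers 2 were at 0, and the sum was at most 0.219 CPM in the libraries labelled shIGF2BP1 and 0.0337 CPM in shNT. The part of these markers in the members' values was not tested.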

How the data were processed

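The authors deposited raw read counts per gene and library, not normalised. Per the submitters' processing notes, the tools were HTSeq, HISAT2 2.1.0 and bcl2fastq, and the build was GRCm38. Which annotation release and strand setting were used is not given, so reads of overlapping genes, antisense ones included, cannot be told apart. Of 43721 rows, 92 were spike-ins with 0 counts. Symbols, coordinates and exon lengths came from GENCODE M21 (GRCm38), which matched 42548 of 43629 IDs. Members and lists were chosen with earlier results of these data known.

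Counts were scaled by TMM (CPM), filtered by filterByExpr (minimum count 10, total 15) and compared by edgeR 4.0.16 under R 4.3.3 (quasi-likelihood, robust, two-sided, no covariates), with Benjamini-Hochberg adjustment over all 13445 genes. Fold changes are shIGF2BP1 over shNT. RPKM is CPM per kilobase of union exon. Intervals from the fit cover the spread between libraries, and a limit of 3 counts covers counting error only. Shared sequence was searched as 53-base windows in GENCODE transcripts. Alternatives used DESeq2 1.42.0, limma 3.58.1 and sva 3.50.0. The text could name all 41 members, Igf2bp1, up to 3 genes of smallest p in each pathway list and the first 3 markers of each marker list; Ifnb1 and any other marker named were chosen after their values were seen. Protein sequences of paralogues were not used here. Some genes are not reported here.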

Additional observations from a re-analysis of the deposited data

How the results depend on the processing

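The surrogate-variable fit, the counts by class and the removal of members by shared exon bases or by filter passage were chosen after seeing the data. The 3 genes called became 138 with no filter, 82 with DESeq2, 18 with the replicate block and 6 with 1 surrogate variable. Limma-voom called 1, as did a minimum mean of 5 CPM and a threshold of 0.01, and leaving out a library gave 1 to 5 (5 without shNT replicate 3, 1 without each other library). The 0 members called became 1, Usp18, with no filter and with DESeq2, and stayed 0 without each library. The 30 positive members became 13 of 20 at mean CPM 5 and were 23 to 33 without a library. The median of 0.22 ran from 0.11 (without shNT replicate 3) to 0.43 (without shNT replicate 1) and was 0.01 with 1 surrogate variable; it was 0.23 without the members sharing exons, 23 of which were positive. Members above were 0 at mean CPM 5, where the low members are not tested, and 6 to 17 without a library. Without a library, 7.49% to 14.9% of all tested genes lay above. Members below were 0 with library size only and 1 to 4 without a library (4 without shNT replicate 2, 3 without shIGF2BP1 replicate 2, 2 without replicate 3 of either group). Of all tested genes, 11.7% lay below without shNT replicate 2 and 10.8% without shIGF2BP1 replicate 2. Without replicate 3 of shIGF2BP1 and of shNT, 10.3% and 9.14% did. At an unadjusted p under 0.05, members higher were 0 at mean CPM 5 and 2 to 8 without a library (2 without shNT replicate 2, 3 without shNT replicate 3 or shIGF2BP1 replicate 1, 8 without shNT replicate 1), and members lower were 2 with no filter, 1 with 1 surrogate variable and 0 to 1 without a library. The share of all tested genes higher at that threshold ran from 1.58% to 5.60% without a library. Igf2bp1 was -0.047 with the replicate block, -0.24 with limma-voom and -1.24 to 0.76 without a library.

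Of the 39 members, 22 kept their sign in every alternative, among them Usp18, Gbp7, Cmpk2, Mx1, Ifit3, Rsad2, Oas1a and Ifih1. The surrogate variable turned values to -0.057 for Stat2, -0.031 for Ifit2, -0.11 for Oasl2, -0.36 for Oas3, -0.17 for Bst2, -0.18 for Ifi35, -0.0086 for Rtp4, -0.069 for Trim25, -0.075 for Lgals3bp, -0.14 for Sp100 and -0.0098 for Mycn, and Parp9 was 0.029 with library size only. Without a library, the ranges that crossed 0 were -0.13 to 0.37 for Stat2, -0.18 to 0.48 for Ifit2, -0.88 to 0.035 for Ifi44, -0.078 to 0.83 for Oasl2, -0.0901 to 0.61 for Oas3, -0.52 to 0.0199 for Ddx58, -0.14 to 0.43 for Bst2, -0.061 to 0.42 for Ifi27, -0.24 to 0.23 for Ifi35, -0.23 to 0.12 for Parp9, -0.42 to 0.11 for Parp14, -0.30 to 0.019 for Dtx3l, -0.045 to 0.35 for Rtp4, -0.033 to 0.31 for Eif2ak2, -0.050 to 0.20 for Trim25, -0.0074 to 0.46 for Lgals3bp and -0.045 to 0.65 for Sp100. The causes were not tested.

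Deviations from the group means correlated at 0.19, -0.09 and 0.28 between libraries of the same number, and at -0.37 to 0.22 between unlike numbers. The main fit did not pair the samples by number, and these few correlations cannot settle whether they were paired. The block left 30 members positive, with a median of 0.22. The longer ISRE core GAAANNGAAAC was present in 14 members and 0.944% of genes. Depth limits the members under 1 CPM, where a library held as few as 4 counts among tested members and 1 among the 2 that were not tested.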
